A study of Mus musculus with 2 samples.

Results

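The endocannabinoid system was measured through 7 mouse genes, which make up its central receptor and the main enzymes that make and degrade its lipid messengers. They were taken by symbol, by a rule that uses no measured value, although the list was chosen with earlier results of these data known. All 7 were found among 43346 annotated genes (69691 gene entries in all), with 29 of 129984 transcript entries. Cnr1 encodes the CB1 receptor, Dagla and Daglb the diacylglycerol lipases, Mgll and Abhd6 hydrolases of 2-arachidonoylglycerol (2-AG), Napepld a phospholipase that releases anandamide, and Faah the amidase that degrades it.

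RNA came from the frontal cortex of 8 week old C57BL/6J mice, unmodified and untreated as far as the labels say, in 1 group of 2 libraries labelled as biological replicates from mixed-sex littermates. Both libraries carry 1 donor code and the sex label pooled male and female, and the number of animals behind each is not given. Polyadenylated, rRNA-depleted RNA longer than 200 nt was sequenced as stranded read pairs of 101 nt with ERCC spike-in RNAs (synthetic transcripts added to each sample). A single group allows no contrast of conditions, and 2 libraries cannot give a two-sided exact p below 0.5, so levels, their spread and ratios between genes are reported without p-values.

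Endocannabinoids are lipids made on demand in the membrane of a neuron that has been strongly activated. 2-AG is cut from diacylglycerol by diacylglycerol lipase in dendrites and travels backwards across the synapse to CB1 on the axon terminal, where the receptor signals through Gi/o proteins and lowers transmitter release. Monoacylglycerol lipase in the terminal then ends the signal, while anandamide follows a separate route, released by NAPE-PLD and other enzymes and hydrolysed by FAAH.

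The depth was 106084891 expected counts for replicate 1 and 90476207 for replicate 2, and the counts differed between them beyond sampling noise (chi-square per degree of freedom 52.7 over 20312 genes). Markers of cortical excitatory neurons were present: Slc17a7 was at 447 and 401 TPM (transcripts scaled to a fixed library total, a level per length of transcript), Neurod6 at 21.9 and 19.3 and Tbr1 at 24.5 and 26.2, whereas the heart gene Myh6 was at 0.01 TPM in both and the liver gene Alb at 0.05 and 1.11 TPM. Sex-linked genes went against the sex label. Xist, which is transcribed from the inactive X, was counted at 107 fragments (replicate 1) and 77696 (replicate 2), and the Y-linked gene Ddx3y had 4584 and 1. The other 3 Y-linked genes examined (Eif2s3y, Kdm5d and Uty) had 1777 to 7150 counts in replicate 1 and at most 3 in replicate 2. Sex and library therefore cannot be told apart in any difference between the replicates, and each value is given per library.

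All 7 genes were detected in both libraries, and their levels spanned 21.5-fold. Mgll was the highest and Napepld the lowest in both, and 6 of the 7 (all but Napepld) lay above the median level of 13247 protein-coding genes with a mean of at least 1 TPM. Mgll alone took 35.7% and 36.5% of the summed TPM of the 7 genes, which was 250 in replicate 1 and 215 in replicate 2.

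**Figure D1:**
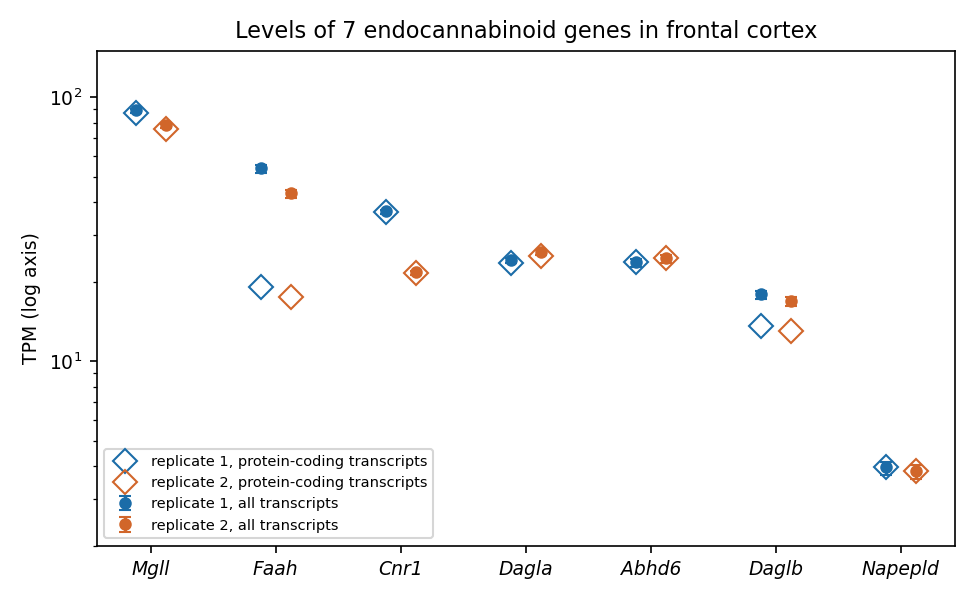
Level of each gene in TPM (log axis) in replicate 1 (blue) and replicate 2 (orange). Filled points sum all transcripts, bars are the deposited interval bounds, and open diamonds sum protein-coding transcripts only. Mgll is the highest and Napepld the lowest in both libraries, Cnr1 differs most between them, and the diamonds of Faah fall to 19.1 and 17.6 TPM.

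Cnr1, the receptor, lies on mm10 chromosome 4 from 33924593 to 33948831 on the plus strand (ENSMUSG00000044288.6). Its level was 37.1 TPM in replicate 1 (deposited interval 36.3 to 37.4) and 21.7 TPM in replicate 2 (21.1 to 22.1), a mean of 29.4 ± 10.9 TPM (SD, n = 2). Replicate 1 was the higher library, and the deposited intervals lay far apart. In counts, 17061 against 9037 fragments gave a TMM-scaled log2 ratio, replicate 2 over replicate 1, of -0.64 (counting interval -0.67 to -0.60), that is 1.55-fold more in replicate 1. The mean level exceeded that of 71.8% of the protein-coding genes at 1 TPM or more.

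Cnr1 RNA was carried by a pair of annotated coding transcripts with separate first exons and the same 1419 coding bases. Their second exons begin at the same base and end at 33948831 in Cnr1-201 and at 33948819 in Cnr1-202. Cnr1-201, whose first exon of 527 nt runs from 33924632 to 33925158, took 86.7% and 88.8% of the gene's TPM (87.8 ± 1.51%). Cnr1-202, which starts downstream with a first exon of 493 nt at 33926202 to 33926694, took 12.6% and 10.3% (11.5 ± 1.65%). Both transcripts were lower in replicate 2: Cnr1-201 had 14899 and 8099 counts (log2 ratio -0.60, counting interval -0.64 to -0.56). Cnr1-202 had 2151 and 931 counts (log2 ratio -0.93, -1.04 to -0.82), with deposited posterior SDs of 230 and 211 counts for the split between transcripts. The third entry, Cnr1-203, shares the upstream first exon and took 0.77%. Bases upstream of the 2 first exons are shown because they differ in CG content. The first stretch ends before the most upstream RefSeq start, which lies 329 nt ahead of the Cnr1-203 start, and the second directly adjoins the Cnr1-202 start. They are on the plus strand of GRCm38.p6 from RefSeq promoter windows, with capitals marking CG dinucleotides: 14 in 120 bases before the most upstream RefSeq start at 33924264 (chr4:33924144-33924263) and 2 in 72 bases before the Cnr1-202 start (chr4:33926130-33926201).
Cnr1 upstream of Cnr1-203: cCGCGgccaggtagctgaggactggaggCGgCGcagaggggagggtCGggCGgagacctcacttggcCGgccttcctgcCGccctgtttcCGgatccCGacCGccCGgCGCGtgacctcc
Cnr1 upstream of Cnr1-202: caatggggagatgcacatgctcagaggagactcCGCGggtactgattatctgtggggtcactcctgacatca
In windows of 300 bases (250 before and 50 after a RefSeq start), the 3 Cnr1 windows held 40, 33 and 5 CG dinucleotides in order along the strand, against a median of 7 over 32851 windows. The window with 5, next to the Cnr1-202 start, had more than 38.0% of all windows, and the other two had more than 96.1% and 91.4%. The transcript with the larger share therefore started nearer to the windows rich in CG.

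Dagla, the diacylglycerol lipase that is the main source of 2-AG at adult synapses, spans chromosome 19 from 10245265 to 10304877 on the minus strand (ENSMUSG00000035735.6). It was measured at 24.2 TPM (interval 23.6 to 24.6) and 25.9 TPM (25.2 to 26.3), a mean of 25.1 ± 1.21 TPM (SD, n = 2). Replicate 2 was slightly higher, with 10720 and 10359 counts and a log2 ratio of 0.23 (counting interval 0.19 to 0.27). A single transcript, Dagla-201, carried 97.02 ± 0.77% of its TPM.

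Daglb, the paralogous lipase, spans chromosome 5 from 143464584 to 143505942 on the plus strand (ENSMUSG00000039206.12). It stood at 18.0 TPM (17.3 to 18.5) and 16.9 TPM (16.2 to 17.5), a mean of 17.4 ± 0.785 TPM. Its 4116 and 3442 counts gave a log2 ratio of 0.02 whose counting interval (-0.04 to 0.09) holds 0. Daglb-201 carried 76.2 ± 1.10% of the TPM, and a pair of transcripts annotated as retaining introns, Daglb-203 and Daglb-202, carried 6.8% and 6.2%. An entry that GENCODE M21 does not hold (ENSMUST00000145651) took 10.8 ± 2.47%. Rac1, a small GTPase gene on the opposite strand, shares 2309 exon bases with Daglb in GENCODE M21 and had 27414 and 23398 counts, many more than Daglb. Both genes had a deposited posterior SD of 0 for the count, that is, no fragments divided between genes. The deposited Daglb-201 has 3214 nt against 4651 in M21, so the overlap in the annotation that was quantified is not known from M21.

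Dagla exceeded Daglb by 0.52 ± 0.13 log2 units of TPM (1.44-fold, n = 2), with 0.43 in replicate 1 and 0.62 in replicate 2. A pair of genes is called apart here when 3 conditions hold: the 2 libraries give the ratio 1 sign, the SD is smaller than the mean ratio, and the deposited TPM intervals are separate in each library. Dagla and Daglb met all of these. Without division by length the difference was larger, 1.49 log2 units of counts.

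Mgll encodes monoacylglycerol lipase, the principal 2-AG hydrolase of the brain, and spans chromosome 6 from 88724412 to 88828360 on the plus strand (ENSMUSG00000033174.13). Its level was 89.2 TPM (87.3 to 90.5) in replicate 1 and 78.3 TPM (76.3 to 79.3) in replicate 2, a mean of 83.7 ± 7.76 TPM (SD, n = 2), above 91.0% of the protein-coding genes at 1 TPM or more. Its 25327 and 20230 counts gave a log2 ratio of -0.04 (counting interval -0.07 to -0.02), a small difference that counting error alone did not cover. An antisense gene, Gm26588, shares 167 exon bases with it and was at 1.5 and 1.28 TPM.

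By the estimated split of counts between transcripts, Mgll differed between the libraries in where its transcripts began more than in its total. The 4 entries that share a first exon ending at 88724571, led by Mgll-204, held 13200 counts in replicate 1 and 9380 in replicate 2 (log2 ratio -0.21). The 3 entries whose first exon ends at 88725178, Mgll-201, Mgll-207 and the minor Mgll-205, held 12127 and 10850 (log2 ratio 0.12). The upstream exon was thus in 52.1% of the gene's counts in replicate 1 and in 46.4% in replicate 2, which reversed the larger group in counts. In the sum of TPM, a level per length, the upstream group was the larger in both libraries, with 55.9% and 50.2% of the gene. In TPM, Mgll-201 was at 18.2 and 17.6 and Mgll-207 at 21.2 and 21.3, so only the scaled counts place both of them higher in replicate 2. As a share of the gene's TPM, Mgll-204 took 50.8% and 45.8%, Mgll-207 took 23.7% and 27.2%, and Mgll-201 took 20.4% and 22.5%. Mgll-204 and Mgll-201 have the same 909 coding bases, while Mgll-207 has 957. Posterior SDs of 289 and 233 counts for Mgll-204 were small beside its change, but those of 526 and 403 for Mgll-201 and 455 and 354 for Mgll-207 make the split between Mgll-201 and Mgll-207 less certain. This grouping by first exon was made after the transcript values were seen. The bases before the Mgll-204 start (chr6:88724292-88724411, plus strand, GRCm38.p6, RefSeq) are shown as the start used by the most abundant Mgll transcript, with the 17 CG dinucleotides in capitals.
Mgll upstream of Mgll-204: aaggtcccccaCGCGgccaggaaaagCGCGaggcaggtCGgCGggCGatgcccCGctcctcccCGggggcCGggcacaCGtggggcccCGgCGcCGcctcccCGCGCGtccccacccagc
The RefSeq windows at the Mgll-204 and Mgll-207 starts held 32 and 42 CG dinucleotides, more than 90.5% and 96.97% of all windows, so both Mgll starts lay in sequence rich in CG, unlike the downstream Cnr1 start.

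Abhd6, a membrane hydrolase that acts on 2-AG on the postsynaptic side, spans chromosome 14 from 8002902 to 8056763 on the plus strand (ENSMUSG00000025277.9). It was at 23.7 TPM (22.8 to 24.4) and 24.5 TPM (23.5 to 25.3), a mean of 24.1 ± 0.573 TPM, with 3484 and 3270 counts. Its log2 ratio of 0.19 (counting interval 0.12 to 0.26) placed replicate 2 slightly above replicate 1. Abhd6-202 carried 95.2 ± 1.16% of the TPM and Abhd6-201 the remaining 4.8%, from separate first exons and with the same 1008 coding bases. Mgll exceeded Abhd6 by 1.79 ± 0.17 log2 units of TPM (3.46-fold) and Dagla by 1.74 ± 0.20 (3.33-fold), in the same direction in both libraries. In counts not divided by length these were 2.75 and 1.10 log2 units. Abhd12, another serine hydrolase of 2-AG in the brain, was at 148 and 146 TPM and exceeded Abhd6 by 2.61 ± 0.05 log2 units (6.1-fold). The mean level of Abhd12 was also above that of Mgll, 147 against 83.7 TPM, a pair looked at after its values were seen. In counts not divided by length Mgll was the higher, with 25327 and 20230 against 19995 and 16810 for Abhd12. The direction of this pair therefore depends on length.

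Napepld, which encodes the phospholipase D that cuts anandamide from its membrane precursor, spans chromosome 5 from 21662901 to 21701396 on the minus strand (ENSMUSG00000044968.12). It was by far the lowest member, at 3.96 TPM (3.71 to 4.17) and 3.83 TPM (3.56 to 4.03), a mean of 3.9 ± 0.0919 TPM (SD, n = 2), above only 17.9% of protein-coding genes at 1 TPM or more. Its 1192 and 1042 counts gave a counting interval that holds 0 (log2 ratio 0.09, counting interval -0.03 to 0.21). A pair of transcripts with the same 1188 coding bases shared the gene almost evenly, Napepld-202 with 52.1 ± 0.46% and Napepld-201 with 47.9%, but the split is uncertain. The posterior SD was 64.1 counts in replicate 1, where Napepld-202 had 644 and Napepld-201 548, and 69.5 in replicate 2, where they had 556 and 486.

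RNA of a pair of other genes for N-acylethanolamine release was more abundant than that of Napepld. Gde1, a glycerophosphodiesterase of an alternative route to anandamide, was at 188 and 178 TPM, 5.55 ± 0.02 log2 units above Napepld (46.9-fold). Abhd4, a lipase that acts on the same precursor, was at 28.5 and 33.0 TPM, 2.98 ± 0.18 log2 units above Napepld (7.88-fold). Dagla stood 2.69 ± 0.10 log2 units above Napepld (6.44-fold) and Faah 3.63 ± 0.18 (12.4-fold). With protein-coding transcripts only, an alternative added after the data were seen, Faah over Napepld was 2.23 log2 units, and in counts not divided by length Gde1 stood 4.14, Abhd4 2.26 and Faah 2.99 log2 units above Napepld. All 4 pairs were apart in both libraries, so the synthetic gene Napepld was below each gene it was paired with.

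Faah encodes fatty acid amide hydrolase and spans chromosome 4 from 115967145 to 116017926 on the minus strand (ENSMUSG00000034171.9). Its level over all transcripts was 53.7 TPM (51.9 to 55.2) in replicate 1 and 43.4 TPM (41.7 to 44.7) in replicate 2, a mean of 48.6 ± 7.33 TPM (SD, n = 2), second to Mgll. The difference was smaller in counts: 10037 and 7779 fragments gave a log2 ratio of -0.09 (counting interval -0.13 to -0.04).

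In Faah the retained-intron transcripts outweighed the coding transcript in TPM. Of the other 6 genes only Daglb has entries typed as retained intron in M21, so for the rest the annotation fixed this outcome. In Daglb such entries took 12.1% and 14.0% of the TPM, less than its coding transcript. The only entry typed as protein coding, Faah-201 with 1737 coding bases, took only 35.5% and 40.5% of the gene's TPM, 19.1 and 17.6 TPM. The 5 entries annotated as retained-intron transcripts took 58.9% and 54.6% (56.7 ± 3.02%), 31.6 and 23.7 TPM, so they exceeded the coding transcript in both libraries. The leading entries among them were Faah-203, of 790 nt, with 25.9 ± 1.29% of the TPM, Faah-208, of 692 nt, with 11.8 ± 1.56%, and Faah-206 with 11.1%. These short entries weigh more per fragment in TPM: of the expected counts, Faah-201 took 59.1% and the retained-intron entries 37.1%. Counts of Faah-201 were 5716 and 4762 (log2 ratio 0.02), whereas those of the retained-intron entries were 3908 and 2746 (log2 ratio -0.23). Across 3647 genes with at least 100 retained-intron counts the median of the latter ratio was -0.06, and 28.2% had a lower value than Faah. Retained-intron transcripts also took a larger part of the whole library in replicate 1 (4.31% of TPM) than in replicate 2 (3.96%), and their part in the Faah difference was not tested.

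The retained-intron share of Faah was looked at after its value had been seen. Among 13244 protein-coding genes the median share was 0 and 1.97% had a share at or above that of Faah; among the 5316 with an annotated retained-intron transcript the median was 10.1% and 4.91% were at or above Faah. Of the 14 introns of Faah-201, 6 lay whole within the retained-intron entries: intron 14 in Faah-203, 12 in Faah-202, 11 in Faah-206, and 5, 8 and 9 in Faah-207. Faah-208 held no whole intron of Faah-201. Its first exon (115999499 to 115999937) covers only part of intron 12 (115999608 to 116000048). Intron 14, the last and the one inside the most abundant of the entries, is shown from the GENCODE M21 transcript (GRCm38, chr4:115998616-115998820, minus strand, 205 bases), with its first and last pair of bases in capitals.
Faah intron 14 in Faah-203: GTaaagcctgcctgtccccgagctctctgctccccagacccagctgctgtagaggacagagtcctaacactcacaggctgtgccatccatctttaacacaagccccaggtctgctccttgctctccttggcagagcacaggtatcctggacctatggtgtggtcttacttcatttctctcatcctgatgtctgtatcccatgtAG
It begins with GT and ends with AG, the usual splice site bases, as did the other 5 introns held whole in these entries. Whether fragments covered this intron itself cannot be read from the deposited totals per transcript.

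**Figure D2:**
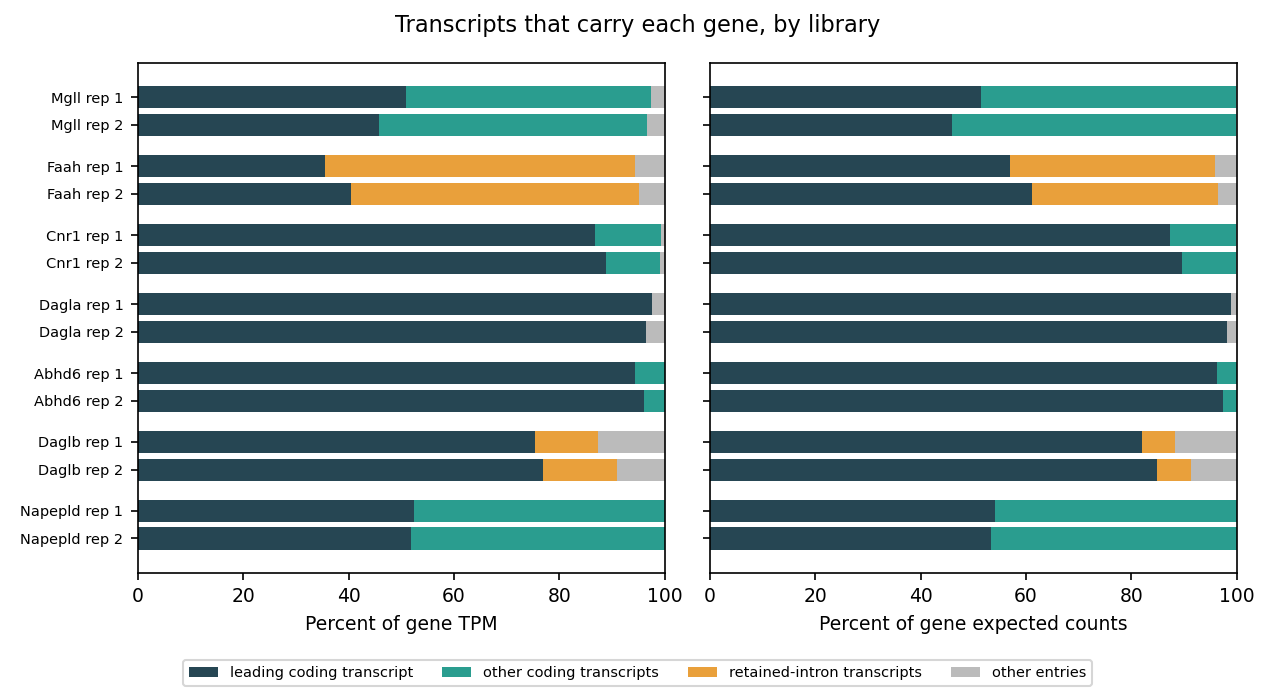
Share of each gene's TPM (left) and expected counts (right) by class of transcript, for each library. Of the 7 genes only Faah and Daglb have entries typed as retained intron (orange). In Faah these exceed the leading coding transcript (dark) in TPM, and in counts the Faah coding transcript is the larger with 59.1% in the mean.

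With protein-coding transcripts alone, Faah stood in the fifth place, not the second. Its level was then 19.1 and 17.6 TPM (18.3 ± 1.07), below Cnr1 (36.8 and 21.6), Dagla (23.6 and 25.03) and Abhd6 (23.7 and 24.5). Mgll remained the highest at 86.8 and 75.7 TPM, and Daglb was at 13.6 and 13.0. Mgll exceeded Faah by 0.79 ± 0.08 log2 units of TPM over all transcripts (1.73-fold) and by 2.15 with coding transcripts alone. Faah also exceeded Naaa, a lysosomal amidase of N-acylethanolamines at 21.4 and 19.3 TPM, by 1.25 ± 0.11 log2 units (2.38-fold), but with coding transcripts alone the ratio turned to -0.12 log2 units.

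Over all transcripts the order of the means was Mgll, Faah, Cnr1, Dagla, Abhd6, Daglb and Napepld. In replicate 2 Cnr1 moved from the third place to the fifth, behind Dagla and Abhd6. Of the 21 pairs among the 7 genes 18 were apart by the rule above, and of the 6 pairs of neighbours 4 were. The exceptions all lay in the middle of the order. Cnr1 was above Dagla by 0.61 log2 units in replicate 1 and below it by 0.25 in replicate 2, and likewise stood 0.64 above and 0.17 below Abhd6. Dagla was above Abhd6 by 0.03 and 0.08 log2 units with overlapping intervals. Cnr1, Dagla and Abhd6 therefore have no settled order in these libraries. In counts not divided by length the order was Mgll, Cnr1, Dagla, Faah, Daglb, Abhd6 and Napepld.

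Cnr1 was also compared with Cnr2, which encodes the CB2 receptor of immune cells. Cnr2 had 22 and 14 counts, 0.07 and 0.05 TPM, and Cnr1 exceeded it by 8.91 ± 0.20 log2 units (480-fold). With a pseudocount of 1 TPM, which weighs on the few counts of Cnr2, the ratio was 4.80 log2 units. Cnrip1, which encodes a protein that binds the tail of CB1, was at 64.9 and 62.9 TPM, and Cnr1 was below it by 0.81 log2 units in replicate 1 and 1.53 in replicate 2 (a mean ratio of -1.17 ± 0.51). In counts not divided by length the same ratio was 0.78 log2 units, so its direction depends on length. By TPM all 12 pairs of genes chosen for comparison were apart.

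**Figure D3:**
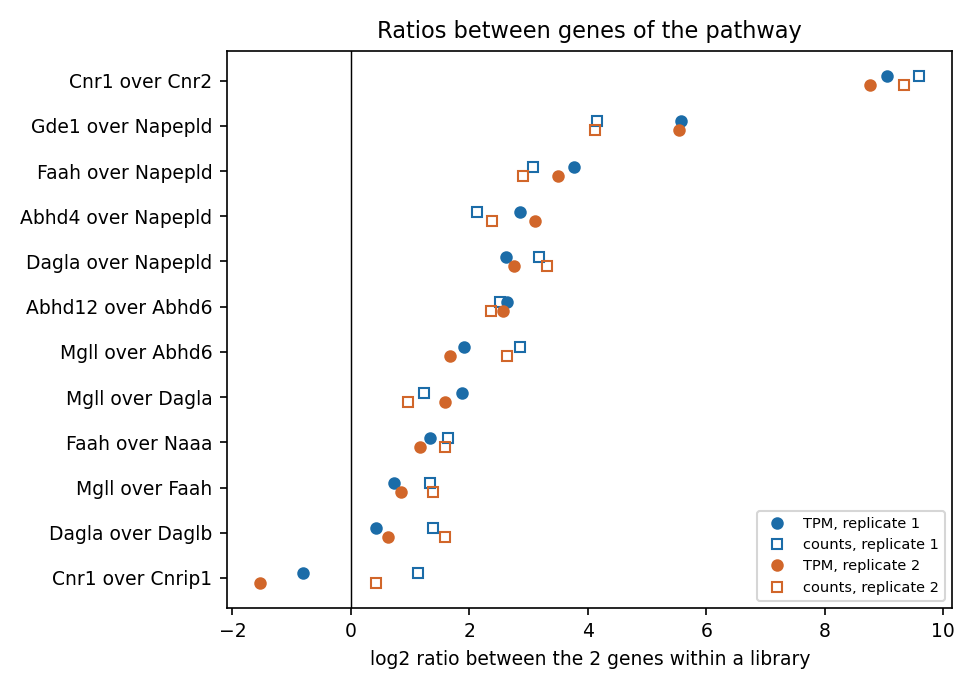
Log2 ratio between the 2 genes of each of the 12 pairs within replicate 1 (blue) and replicate 2 (orange), from TPM (filled circles) and from expected counts (open squares). Every pair keeps its side of 0 in both libraries and both units except Cnr1 over Cnrip1, which lies below 0 by TPM and above 0 by counts.

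Between the 2 libraries, 2 of the 7 genes (Dagla and Abhd6) were higher in replicate 2, 3 (Cnr1, Mgll and Faah) were lower, and Daglb and Napepld had counting intervals that hold 0. Of 13247 protein-coding genes with a mean of at least 1 TPM, 56.2% had an interval without 0, with 29.0% above and 27.2% below, so the 5 of 7 are not read as particular to these genes. Cnr1 was the only member beyond 0.5 log2 units, beyond which lay 3.19% of the genes in either direction (1.74% higher and 1.46% lower in replicate 2). The median log2 ratio of the 7 genes was 0.02 beside 0.00 for all genes, and the central 95% of all genes ran from -0.40 to 0.43. Only 0.73% of the genes had a lower ratio than Cnr1. Whether fewer cells expressed Cnr1 or each held less of its RNA cannot be told apart in tissue RNA.

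**Figure D4:**
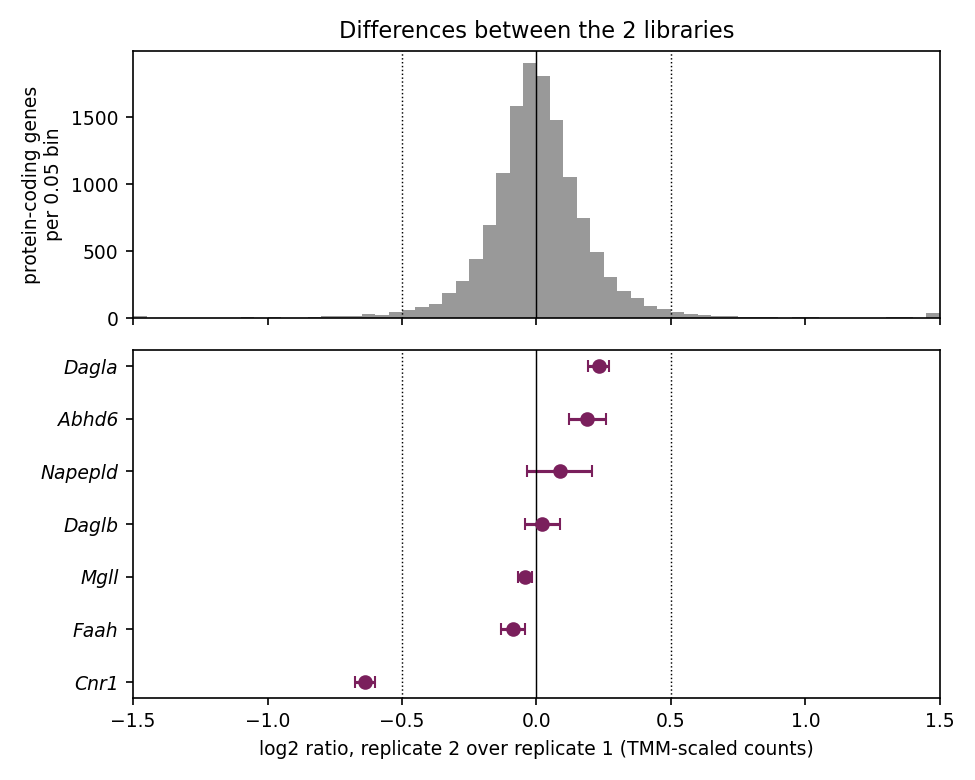
Top: number of protein-coding genes per bin of 0.05 in the log2 ratio of replicate 2 over replicate 1 (TMM-scaled counts), with genes beyond 1.5 gathered in the end bins. Bottom: the same ratio for the 7 genes with 95% counting intervals. Cnr1 at -0.64 lies outside the dotted lines at 0.5 in either direction, and the other 6 lie between them.

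Markers of several cell types also differed between the libraries, and their part in the Cnr1 difference was not tested. Cnr1 in cortex is known to be most abundant in the interneurons that contain cholecystokinin. Of the 4 markers of that type, Cck was at 654 and 716 TPM, and Htr3a (5.34 and 4.88), Adarb2 (12.5 and 11.02) and Slc17a8 (0.31 and 0.28) were slightly lower by TPM. Their summed level was 672 and 732 TPM, nearly all of it Cck, and tissue RNA does not show which cells held the Cck RNA. The sum is therefore not a measure of these interneurons. The median log2 count ratio of the 3 markers at 1 TPM or more was 0.00. The GABAergic markers Gad1, Gad2 and Slc32a1 summed to 598 and 760 TPM, with a median ratio of 0.17. Within these sums Cck and Gad1 held most of the level. Gad1 was at 468 and 631 TPM, with a log2 count ratio of 0.17, a smaller difference than by TPM. Gad2 was at 48.5 and 43.3 TPM (log2 count ratio -0.01) and Slc32a1 at 81.4 and 86.0 TPM (0.21). The 4 microglial markers, Cx3cr1, P2ry12, Tmem119 and C1qa, were all lower in replicate 2 (109 and 72.5 TPM summed, median ratio -0.46, 2 of 4 below -0.5). The striatal markers Drd1, Drd2, Ppp1r1b and Adora2a were all higher there (61.7 and 88.7 TPM, median 0.67, 3 of 4 above 0.5), as were the 3 oligodendrocyte markers (1253 and 1608 TPM, median 0.45). Astrocyte markers summed to 360 and 296 TPM, but their log2 count ratios lay on both sides of 0 (median -0.07). Aqp4 had -0.37 and Slc1a3 -0.19, whereas Gja1 had 0.04 and Aldh1l1 0.13. Endothelial markers summed to 70.7 and 64.5 TPM, with ratios of 0.03 for Cldn5 and -0.12 for Flt1. The parvalbumin interneuron markers went opposite ways and summed to 39.8 and 48.4 TPM. Pvalb was at 18.9 and 31.0 TPM (log2 ratio 0.83) and Tac1 at 20.9 and 17.4 (-0.15). Fos and Arc, genes induced by neuronal activity, were at 19.7 and 46.3 TPM in replicate 1 and at 52.2 and 107 TPM in replicate 2. Their part in the Cnr1 difference was not tested either.

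The protein-coding genes nearest to Cnr1 by level in the 2 libraries (the distance in log2 TPM of replicate 1 and replicate 2) were Copg2 at 37.0 and 20.9 TPM (distance 0.06), Hes5 at 35.6 and 22.3 TPM (0.07) and Hpcal1 at 36.0 and 24.1 TPM (0.16). Likeness in 2 libraries is a description of levels only. By counts the 3 genes differed: Hes5 and Hpcal1 had log2 ratios of -0.51 and -0.45, near the -0.64 of Cnr1, whereas Copg2 had -0.15.

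Beyond the 7 genes, 46 others of the pathway were grouped in 6 lists, and 36 of them reached 1 TPM in both libraries. None of those 36 was beyond 0.5 log2 units between the libraries in either direction, and their median ratio was -0.02, beside 3.19% of all genes beyond that fold. Other receptors for these and related lipids were the list with the lowest levels. Of the 7 only Pparg, a nuclear receptor for fatty acid derivatives, reached 1 TPM (5.05 and 5.38 TPM). Ppara, the nuclear receptor for N-acylethanolamines, was at 0.76 and 0.71 TPM, and Gpr119 was the lowest with 1 count in replicate 1 and 0 in replicate 2. The median of the list was 0.06 TPM.

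Genes of CB1 partners and of Gi/o proteins were abundant. All 9 CB1 partners and G proteins reached 1 TPM, with a median of 70.3 TPM and a median log2 ratio of 0.07. They ran from Gnai3 at 19.3 and 18.5 TPM to Gnao1, the Go alpha subunit, at 216 and 207 TPM, with Gnai2 next at 182 and 165. Genes that drive 2-AG synthesis through Gq receptors were also all present, 10 of 10, with a median of 23.9 TPM. Gna11, a Gq family alpha subunit, was the highest at 76.1 and 74.1 TPM, followed by the phospholipase gene Plcb1 at 48.5 and 52.1, and its relative Plcb2 was the lowest at 1.81 and 1.51.

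Of 10 other genes of N-acylethanolamine synthesis 7 reached 1 TPM, and the median was 8.63 TPM. Gde1 and Abhd4 led the list, and Hrasls5, an acyltransferase gene, was the lowest with 3 counts in each library. Of the 6 other genes of breakdown and oxidation 5 reached 1 TPM. Abhd12 led them, followed by Abhd16a, a phosphatidylserine lipase gene, at 82.2 and 70.9 TPM, and the lipoxygenase gene Alox15 was the lowest at 0.14 and 0.41. The 4 genes for proteins that carry lipids inside cells had the highest median of the 6 lists, 122 TPM. Fabp7, the fatty acid binding protein of astrocytes and their precursors, was at 296 and 232 TPM, Fabp3 at 128 and 126, and Fabp5, the lowest of the 4, at 119 and 83.1.

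**Figure D5:**
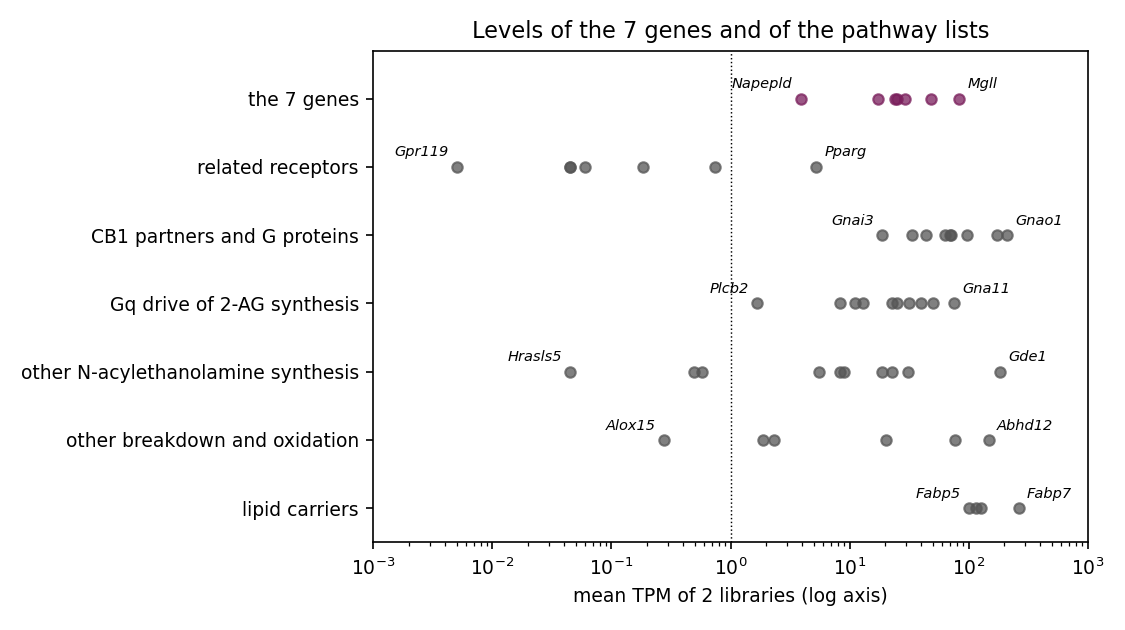
Mean TPM of 2 libraries (log axis) for the 7 genes and for each gene of the 6 pathway lists, with the lowest and highest gene of each named. The dotted line marks 1 TPM. Related receptors lie below it except Pparg, while CB1 partners, Gq drive genes and lipid carriers lie above it throughout.

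The RefSeq table gave promoter windows for 6 of the 7 genes, 10 windows in all, and Dagla has no entry. Apart from the Cnr1 and Mgll windows described above, Napepld had 28 CG dinucleotides, Abhd6 24 and 26, Faah 16 and Daglb 11, all above the median of 7. The letters GGGCGG (either strand) occurred in 6 of the 10 windows and in 35.7% of all 32851. TATAAA occurred in none of the 10 and in 13.6% of all, and CCAAT in 1 of the 10, an Abhd6 window, and in 37.4% of all. The windows of Abhd6 overlap each other, and those of Mgll overlap by a few bases, so the 10 windows are not independent.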

How the data were processed

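The authors quantified polyadenylated RNA from 2 frontal cortex libraries of 1 group on mm10 with annotation M4, per the deposited README text. The programs used for alignment and quantification are recorded as not given in the sources used here. The deposited gene and transcript tables hold expected counts (estimated numbers of fragments), TPM with spike-in entries in the total, FPKM and, for transcripts, the percent of the gene's TPM. Their posterior SDs of counts and bounds of a TPM interval, as deposited, were read as signal values. The level of that interval is not stated and was read as 95%.

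Members were matched by gene identifier without version to GENCODE M21 symbols, and 28 of their 29 transcripts were in M21, 22 of them with the deposited length. Types, coordinates and introns came from M21 and may differ from M4. All 7 genes had a deposited posterior SD of 0 for the gene count, so no fragments were shared with other genes in the model.

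A replicate ratio is the log2 of library-scaled counts (CPM) in replicate 2 over those in replicate 1, with a prior count of 2. It uses unrounded expected counts and TMM scaling (factors 1.02 and 0.982) with edgeR 4.0.16 in R 4.3.3. Scaling was over annotated genes (101771589 and 86854784 counts), without spike-ins (3.50% and 3.47% of all counts). Counts were rounded only for the scaling factors and the counting intervals. The 95% counting intervals are exact conditional binomial ones and cover counting error only, since PCR reads carry no molecular identifiers and are not independent. By their sex-linked counts the libraries came from different animals, and SDs over 2 libraries have 1 degree of freedom. The ratio code was tested on simulated data.

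The 7 genes, the pathway and marker lists and the gene pairs were chosen with earlier results of these data known. Named genes were the 7, the 2 highest and the lowest of each pathway list, genes of the 12 pairs, the 3 protein-coding genes nearest to Cnr1 and transcripts with at least 5% of their gene's TPM in either library. Ppara, Alb and other marker genes, and minor transcripts, were named after their values were seen. The alternatives tried were posterior means, rescaled FPKM, TPM rescaled to nuclear protein-coding genes, counts not divided by length, DESeq2 1.42.0 size factors, library size, spike-in totals, other prior counts, pseudocounts, filters and folds, each library alone, and protein-coding transcripts only, which was added after the data were seen. The summed level of the excitatory neuron markers is not reported here.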

Additional observations from a re-analysis of the deposited data

How the results depend on the processing

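Of 225 values under alternatives, for 40 results, 191 met the criterion set for their kind of result, 32 moved and 2 reversed. The criterion was the direction and the call for gene pairs, a count within 1.5 times for the order, and a shift under the replicate SD or the counting interval for single values, so the size of a pair ratio or the order itself could still change. The median of the 7 levels, 24.4 TPM in the mean of both libraries, became 49.5 when TPM was rescaled to nuclear protein-coding genes, a change of scale that leaves ratios within a library as they are, and 22.6 with protein-coding transcripts only. The reversed values were Cnr1 over Cnrip1, at 0.78 log2 units in counts not divided by length, and Faah over Naaa, at -0.12 with protein-coding transcripts only. Pair ratios that kept their direction but changed by over 1.5-fold, taken as fold and not in log2 units, are given beside them above. The median replicate ratio of the 7 genes became -0.087 on TPM with a pseudocount of 1, where the median of all genes also shifted to -0.12. On that scale Daglb (-0.09) and Napepld (-0.04) lay below 0, while Cnr1 ran from -0.74 to -0.63 over the scalings. With a fold of 1 in place of 0.5 log2 units, 0 of the 7 genes and 0.747% of all genes were beyond it.

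Each library alone left 20 of 21 gene pairs apart by the deposited intervals, and leaving out either changed no direction among the 12 pairs. No paired analysis was possible because there is only 1 group. Sampling depth limits Cnr2 and the other receptors with few counts most, and the split between transcripts of Napepld, Mgll and Cnr1 is limited by the posterior SDs given above.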
